A study of Mus musculus with 11 samples.

Results

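The Frizzled receptors are a family of membrane proteins that bind Wnt ligands, and the family was followed here in hippocampal RNA of 14-week-old F1 mice. The members are the 10 genes Fzd1 to Fzd10, found by matching the Ensembl identifiers of the count tables to gene symbols of the GENCODE annotation, out of 38293 genes in the tables. All 10 were found and all 10 passed the filter on low counts, a total of at least 10 counts over all mice.

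The mice were wildtype F1 hybrids of 129S6/SvEv dams and C57BL/6J sires, aged 14 weeks. The dams of the CD group had been fed 2.3 mg folic acid per kg diet and those of the FD group 40 mg folic acid per kg diet, and the feeding lasted 6 weeks and ended before conception, so that the F1 mice themselves were never given the rich diet. There were 6 CD mice, 3 of each sex, and 5 FD mice, of which 2 were male and 3 female. RNA of the whole hippocampus was read as 50 bp single-end reads, and the dam of each mouse is not named, so that mice counted as separate samples may share a litter.

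A Frizzled receptor holds its ligand with a cysteine-rich domain outside the cell and passes the signal to Dishevelled inside it. Together with the co-receptors Lrp5 and Lrp6 it keeps beta-catenin from being destroyed, and without them it can act through planar cell polarity proteins that orient cells and axons. In the hippocampus, Wnt signalling is known for its part in the birth of dentate granule cells and in the shaping of synapses.

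By sequence the family falls into subgroups, namely Fzd1, Fzd2 and Fzd7, then Fzd5 and Fzd8, then Fzd4, Fzd9 and Fzd10, and the more distant pair Fzd3 and Fzd6. Because reads of 50 bases were counted only where they aligned to a single place, the likeness of Fzd1, Fzd2 and Fzd7 bears on whether their counts can be told apart. The longest stretch of identical bases between the coding sequences of any pair of members was 47 bases long. It occurred between Fzd1 and Fzd2 and between Fzd1 and Fzd7. The coding sequences below come from GENCODE M21 on GRCm38, written from 5′ to 3′ on the strand of the gene, and the capitals mark the identical stretch with 20 bases on each side in lower case. With both flanks, the first Fzd1 sequence printed here lies at chr5:4756311-4756397 on the minus strand, and its counterpart in Fzd2 at chr11:102605720-102605806 on the plus strand.
Fzd1: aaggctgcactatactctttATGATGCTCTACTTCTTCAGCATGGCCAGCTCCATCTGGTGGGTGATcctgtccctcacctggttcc
Fzd2: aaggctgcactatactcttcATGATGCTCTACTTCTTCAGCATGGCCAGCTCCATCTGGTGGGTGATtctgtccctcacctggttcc
Again with both flanks, the Fzd1 sequence that holds the stretch shared with Fzd7 lies at chr5:4756944-4757030 on the minus strand, and its counterpart in Fzd7 at chr1:59483324-59483410 on the plus strand.
Fzd1: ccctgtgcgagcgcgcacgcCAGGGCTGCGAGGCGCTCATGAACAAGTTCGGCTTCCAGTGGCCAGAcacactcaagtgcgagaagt
Fzd7: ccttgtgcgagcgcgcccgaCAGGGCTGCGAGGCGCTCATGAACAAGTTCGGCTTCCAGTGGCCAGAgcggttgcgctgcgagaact
Both stretches are shorter than an untrimmed read, and in none of the 45 pairs of members did a window of 50 bases occur in both transcripts. The reads were trimmed before alignment, and a read cut to 47 bases or fewer could lie within such a stretch. The lengths after trimming are not given in the sources used here.

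The genes lie on 7 chromosomes of GRCm38. Fzd1 (chromosome 5, 4753839 to 4758035), Fzd9 (chromosome 5, 135248938 to 135251230) and Fzd10 (chromosome 5, 128600844 to 128604093) share a chromosome, as do Fzd5 (chromosome 1, 64730558 to 64737751) and Fzd7 (chromosome 1, 59482424 to 59486955). Fzd2 is on chromosome 11 (102604396 to 102608058), Fzd3 on chromosome 14 (65192449 to 65262463), Fzd4 on chromosome 7 (89404355 to 89413134), Fzd6 on chromosome 15 (39006034 to 39038188) and Fzd8 on chromosome 18 (9212163 to 9218136). Fzd1, Fzd2, Fzd7, Fzd8, Fzd9 and Fzd10 are annotated with a single exon, whereas the merged exons of Fzd3 form 8 blocks that add up to 12.8 kb, the longest of the family, against 2.29 kb for Fzd9, the shortest.

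Gene annotations on the opposite strand touch 2 of the members in their exons. Gm38058, for which the count tables hold no line, shares 1233 exon bases with Fzd5, and Gm26704 shares 152 exon bases with Fzd6 and had between 1 and 5 counts per mouse. Whether the counting used the strand is not stated in the sources used here, so reads from these stretches cannot be assigned to one gene with certainty, and the values of Fzd5 and Fzd6 carry that limit. Gm27263 and Gm9086 lie inside the Fzd3 gene but share no exon base with it.

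The counts on genes added up to between 11737554 and 44447006 per mouse. A count of 3 corresponded to between 0.0675 and 0.256 CPM (counts scaled to a common library total), far below the lowest Frizzled value. Fzd5 had the fewest counts, from 16 to 74 per mouse, and Fzd3 the most, from 214 to 1399 per mouse. The marker genes of neurons and of the dentate gyrus were those of hippocampal tissue, with Snap25, a synaptic vesicle fusion protein, between 2639 and 3129 CPM and Prox1, a marker of dentate granule cells, between 128 and 163 CPM. Otx2 and Prlr, genes of the choroid plexus that should be nearly absent from hippocampus, lay between 0.0853 and 1.06 CPM and between 3.48 and 4.799 CPM. In 3 libraries, CD female 1, CD female 3 and FD female 3, the share tallied as aligned to several places was over 15%, at 16.01, 15.55 and 15.1%, against 13.7 to 14.46% in the other 8. Results below that rest on these 3 libraries are given with and without them.

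All 10 receptors were detected in all 11 mice, from Fzd1 at the top to Fzd5 at the bottom. Levels between genes were compared as TMM-normalised CPM per kilobase of merged exons. On this scale, Fzd1 had the highest mean level, 2.51 ± 0.300 (SD, n = 11), and Fzd5 the lowest, 0.226 ± 0.0682 (SD, n = 11). Fzd7, of the same subgroup as Fzd1, followed closely with 2.401 ± 0.281 CPM per kilobase (SD, n = 11).

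**Figure D1:**
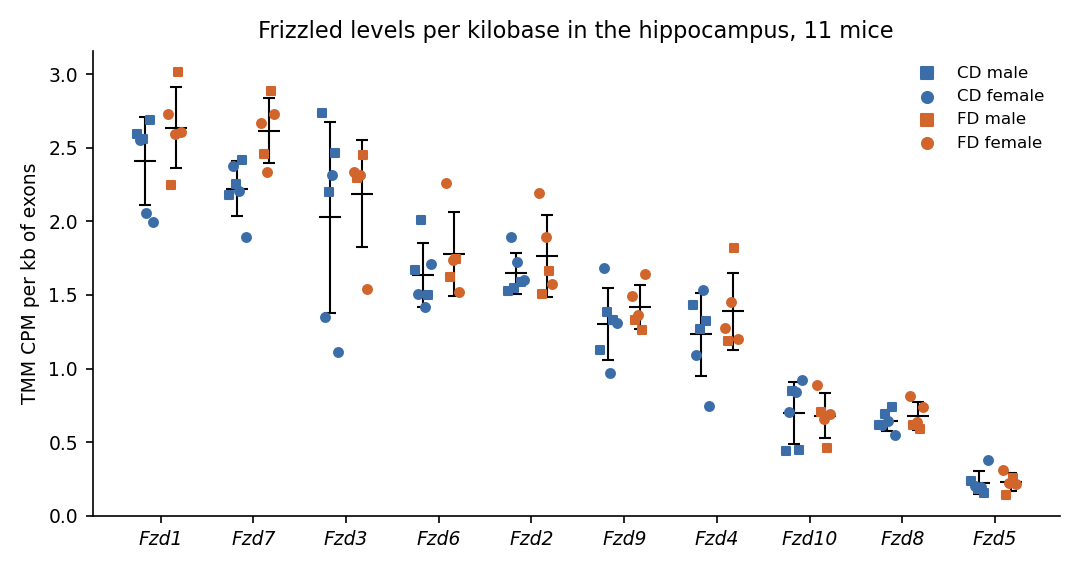
Level of each Frizzled gene in TMM-normalised CPM per kilobase of merged exons (vertical axis, linear from 0) with one point per mouse, 6 CD mice in blue and 5 FD mice in orange, squares for males and circles for females, and black bars for the group mean ± SD. Genes stand in the order of their mean over 11 mice, from Fzd1 at 2.51 to Fzd5 at 0.226, and Fzd3 has its lowest points in 3 female mice.

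Below them came Fzd3, which steers growing axons together with the Celsr proteins, with a mean of 2.10 ± 0.521 CPM per kilobase (SD, n = 11). Before division by length, Fzd3 had a mean of 17.1 ± 2.75 CPM in the 3 libraries (SD, n = 3). In the other 8 libraries it was 30.6 ± 2.10 CPM (SD, n = 8). Fzd6, its relative in planar cell polarity, and Fzd2 had the same mean level within rounding, 1.70 ± 0.248 and 1.70 ± 0.211 CPM per kilobase (SD, n = 11). Fzd9, whose human counterpart lies in the region deleted in Williams syndrome, had 1.35 ± 0.207 CPM per kilobase, and Fzd4, the receptor of the vascular ligand Norrin, had 1.30 ± 0.272 CPM per kilobase (SD, n = 11). Fzd10 and Fzd8 followed with 0.690 ± 0.178 and 0.659 ± 0.0782 CPM per kilobase (SD, n = 11).

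The ranges of 8 of the 9 pairs of neighbours in this order overlapped. Fzd1 was above Fzd7 in 8 of 11 mice, Fzd6 above Fzd2 in 6 of 11, Fzd9 above Fzd4 in 7 of 11 and Fzd10 above Fzd8 in 7 of 11, so that these neighbours changed places between mice. Fzd7 was above Fzd3 in 8 of 11 mice, Fzd3 above Fzd6 in 9 of 11, and Fzd2 above Fzd9 and Fzd4 above Fzd10 in 10 of 11 each. These places rest in part on the 3 libraries. Fzd3 was below Fzd6 only in CD female 1 and CD female 3, which are among them. Fzd7 was above Fzd3 in all 3, and the mice with Fzd3 above Fzd7 were CD male 1, CD female 2 and CD male 3. The step from Fzd8 to Fzd5 was the one place where the ranges of neighbours did not overlap, and Fzd8 was above Fzd5 in 11 of 11 mice. Of the summed level per kilobase of the family, Fzd1 made up 17.1% on average (14.8 to 18.7% per mouse), Fzd7 16.4% (14.99 to 18.9%) and Fzd5 1.56% (0.976 to 3.075%).

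The order depends on the length that is used. Per kilobase of coding sequence, which leaves out the untranslated exons although reads from them are in the counts, Fzd3 came first with 13.5 CPM per kilobase of coding sequence and Fzd7 second with 6.34, and 2 of 10 genes kept their place. With the longest transcript in place of the merged exons, Fzd6 had 1.895 CPM per kilobase in place of 1.70 and every gene kept its rank.

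Maternal diet was followed by no called change in any Frizzled gene, and Fzd7 was the one member with an unadjusted p under 0.05. Of 20589 genes tested with edgeR's quasi-likelihood test, 14 (0.068%) had an adjusted p-value under 0.1, and none of the 10 Frizzled genes was among them. At an unadjusted p under 0.05 there was 1 Frizzled gene, Fzd7, against 2.59% of all genes, and DESeq2 called none of the 10 either. When mice of the same sex and number were treated as pairs (replicate block), 23 genes passed in place of 14, again without a Frizzled gene. No label links mice by number, so this pairing is an assumption.

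In the subgroup of Fzd1, Fzd2 and Fzd7, known for signalling through beta-catenin, Fzd7 had the largest log2 fold change with all mice, though not in every fit: without the 3 libraries Fzd5 (0.33), Fzd10 (0.24) and Fzd2 (0.22) had larger ones, and in females alone Fzd3 (0.40), Fzd8 (0.31) and Fzd6 (0.27) had. Fzd7 ranged from 8.59 through a median of 10.1 to 10.95 CPM in the 6 CD mice, and was 12.09, 11.14, 10.58, 13.08 and 12.38 CPM in the 5 FD mice (here and below in the order female 1, male 1, female 2, male 2, female 3). The groups overlapped through a single FD mouse, female 2 at 10.58 CPM, while the other 4 FD mice were above every CD mouse. The mean was 10.1 ± 0.840 CPM (SD, n = 6) in CD mice and 11.9 ± 0.995 CPM (SD, n = 5) in FD mice. The log2 fold change of 0.23 had a standard error of 0.08 and a 95% CI of 0.06 to 0.40, and did not pass the test over all genes (edgeR, adjusted p = 1). Taken as a single gene without adjustment, the difference of 1.79 CPM had p = 0.013 in a two-sided exact permutation test, whose smallest possible p is 0.00216. It is the smallest among the members, and the same exact permutation test gave the others p from 0.197 (Fzd1) to 0.937 (Fzd5). In these assumed pairs, Fzd7 was higher in the FD mouse in 5 of 5, by 0.08 to 0.52 on the log2 scale. An exact sign-flip permutation test over the pairs gave p = 0.0625, the smallest that 5 pairs allow. Over 23 alternative fits its log2 fold change lay between 0.19 and 0.27 and its adjusted p between 0.498 and 1, and without the 3 libraries it was 0.19 (standard error 0.09). The highest value was that of FD male 2, without which the log2 fold change was 0.20.

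Fzd1 ranged from 8.39 through a median of 10.7 to 11.3 CPM in CD mice, and was 11.45, 9.43, 10.89, 12.66 and 10.93 CPM in FD mice. The groups overlapped, with 2 FD mice above all CD mice and 2 CD mice below all FD mice, and the log2 fold change was 0.11 (95% CI -0.09 to 0.32). Fzd2 ranged from 5.59 through a median of 5.84 to 6.94 CPM in CD mice, and was 8.02, 5.52, 6.93, 6.08 and 5.76 CPM in FD mice. Here FD female 1 alone stood above the CD mice, and FD male 1 below them, and the log2 fold change was 0.11 (95% CI -0.12 to 0.34).

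**Figure D2:**
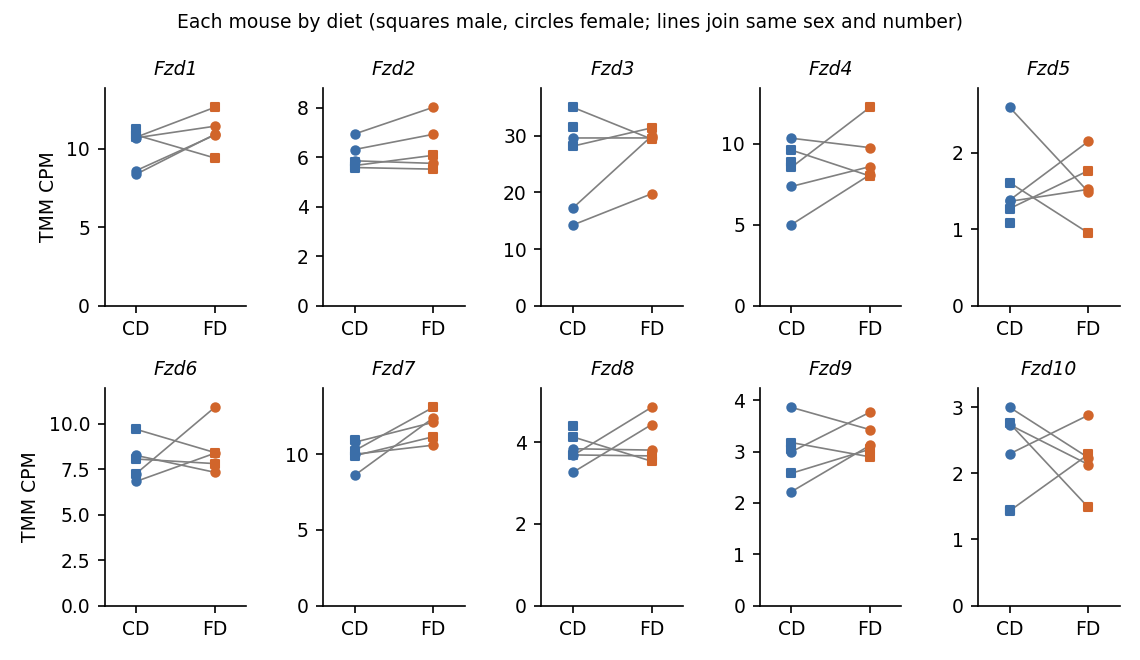
TMM-normalised CPM of each Frizzled gene in the 6 CD and 5 FD mice (vertical axes from 0, with a scale of their own in each panel), squares for males and circles for females, and grey lines joining mice of the same sex and number. For Fzd7 all 5 lines rise from CD to FD, by 0.08 to 0.52 on the log2 scale, while for the other 9 genes some lines fall.

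Fzd5 and Fzd8 are a pair of close relatives with low levels in this tissue. Fzd5 ranged from 1.08 through a median of 1.37 to 2.60 CPM in CD mice, and was 2.15, 0.952, 1.52, 1.77 and 1.49 CPM in FD mice. The FD values lay on both sides of the CD median, and the highest value of all 11 mice was that of CD female 3. Fzd8 ranged from 3.26 through a median of 3.76 to 4.403 CPM in CD mice, and was 4.85, 3.67, 3.81, 3.54 and 4.43 CPM in FD mice. Both groups overlapped for Fzd8, and its log2 fold change of 0.09 (95% CI -0.15 to 0.34) had no fixed sign, since it was -0.16 in males alone.

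In the subgroup of Fzd4, Fzd9 and Fzd10, the log2 fold changes had no stable order. That of Fzd4 was 0.15 (95% CI -0.17 to 0.47), but 0.05 without FD male 2, 0.06 without CD female 3 and 0.04 without the 3 libraries, where Fzd9 had 0.17 and Fzd10 0.24. Fzd4 ranged from 4.99 through a median of 8.70 to 10.3 CPM in CD mice, and was 8.57, 7.997, 9.75, 12.23 and 8.07 CPM in FD mice. FD male 2 stood above the CD mice and the other 4 FD mice lay within their range. FD male 2, which had the highest values of Fzd1, Fzd4 and Fzd7 alike, also had the highest summed level of 10 meningeal fibroblast markers, 393 CPM, against 95.1 to 236 CPM in the CD mice and 126 to 254 CPM in the other FD mice. Its sum of endothelial and mural markers was the highest as well, 456 CPM, against 333 to 415 CPM in the CD mice and 322 to 421 CPM in the other FD mice. The part of these cells in Fzd1, Fzd4 and Fzd7 was not tested.

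Fzd9 ranged from 2.22 through a median of 3.02 to 3.86 CPM in CD mice, and was 3.43, 3.05, 3.12, 2.90 and 3.77 CPM in FD mice, all within the CD range. Fzd10 ranged from 1.43 through a median of 2.51 to 2.996 CPM in CD mice, and was 2.88, 2.28, 2.13, 1.48 and 2.24 CPM in FD mice, again within the CD range. For Fzd10 the fitted log2 fold change was 0.07 (95% CI -0.38 to 0.52) although the mean CPM was lower in FD mice, 2.20 ± 0.496 (SD, n = 5) against 2.28 ± 0.686 (SD, n = 6), so that no direction can be given.

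Fzd3 and Fzd6, the members of planar cell polarity signalling, did not separate the groups either. Fzd3 ranged from 14.2 through a median of 28.9 to 35.02 CPM in CD mice, and was 29.93, 29.42, 29.62, 31.39 and 19.75 CPM in FD mice. Its log2 fold change of 0.10 (95% CI -0.30 to 0.50) became -0.05 (standard error 0.07) without the 3 libraries, and all values under 20 CPM were from them. With them, it was 0.40 (95% CI -0.10 to 0.91) in females alone and 0.23 (95% CI 0.02 to 0.45, adjusted p = 0.709 with edgeR) in the replicate block. Fzd6 ranged from 6.83 through a median of 7.66 to 9.69 CPM in CD mice, and was 10.90, 7.81, 8.38, 8.41 and 7.33 CPM in FD mice. FD female 1 was above the CD mice, and the log2 fold change of 0.13 (95% CI -0.11 to 0.37) was 0.02 without this mouse. The values of Fzd2 and Fzd8 rested on the same mouse, at 0.0092 and 0.02 without it.

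**Figure D3:**
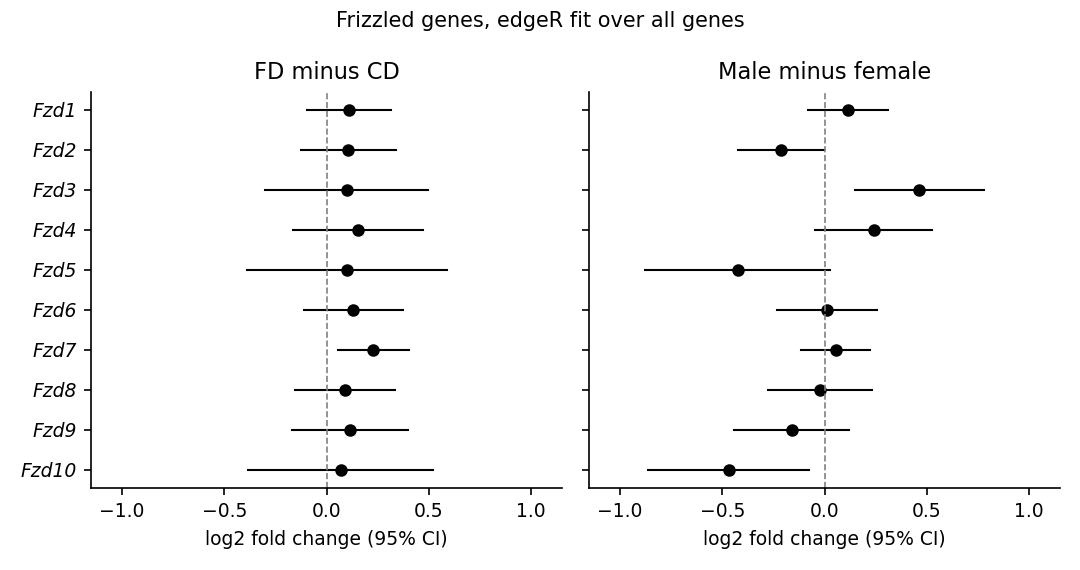
Log2 fold changes of the 10 Frizzled genes (points) with 95% confidence intervals (lines) from the edgeR fits over all genes, FD minus CD on the left and male minus female on the right, on the same horizontal scale. For diet, Fzd7 at 0.23 is the one gene whose interval leaves out 0, and for sex Fzd3 at 0.46 lies highest and Fzd10 at -0.47 lowest.

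As a group, the fitted log2 fold changes of the 10 genes lay between 0.07 and 0.23 with a median of 0.11, beside a median of -0.00 over all genes tested. Their median was 0.05 without FD female 1, 0.03 in males alone, 0.24 in females alone and 0.18 without the 3 libraries. All 10 were above 0, where 48.2% of all genes were, but the genes were measured in the same 11 libraries and are not replicates of each other, and Fzd10 was counted as higher against the order of its means. In 12 of 23 alternative fits all 10 were above 0, and with males alone 7 of 10 were. The summed CPM of the family ranged from 62.2 through a median of 83.1 to 88.3 in CD mice and from 76.1 through 86.7 to 94.3 in FD mice, with overlapping groups.

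Marker lists of other cells of the tissue are given beside these values, and none held a gene called for diet. All 10 meningeal fibroblast markers had a log2 fold change above 0, with a median of 0.37 and Ogn, a small proteoglycan of connective tissue, at 0.60 (standard error 0.21, adjusted p = 1 with edgeR). The 11 endothelial and mural markers had a median of 0.12, with 9 of 11 above 0, and their sum was 333 to 415 CPM in CD mice and 322 to 456 CPM in FD mice. Of the 10 choroid plexus markers 8 were below 0, with a median of -0.13, and 5 had a mean under 1 CPM. Their sum was 39.0 to 95.3 CPM in CD mice and 32.8 to 47.9 CPM in FD mice. The 95.3 CPM was that of CD female 3, one of the 3 libraries, and the other CD mice reached at most 66.6 CPM. The sum includes Ttr, the transthyretin made by that epithelium, at 5.72 to 54.7 CPM in CD and 3.35 to 14.4 CPM in FD mice. The choroid marker Kcne2 was near 0, with a mean of 0.159 CPM, while Otx2 and Prlr were low but detected. In RNA of whole tissue, fewer cells of a type and less RNA per cell cannot be told apart, and the part of these cells in the Frizzled values was not tested.

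The medians of the other marker lists were closer to 0 for diet. They were 0.04 for 9 astrocyte, -0.06 for 9 oligodendrocyte, -0.02 for 8 microglia and -0.03 for 8 neuron markers. For 5 markers of dentate granule cells, 6 of CA field pyramidal cells and 11 of thalamus, striatum and cortex the medians were 0.05, -0.04 and 0.08, and none of the genes in these lists was called.

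Between the sexes, Fzd3 had the largest positive log2 fold change, which fell just short of the threshold and rested on 3 female libraries. With diet as a covariate, 1257 genes (6.11%) had an adjusted p-value under 0.1 between males and females with edgeR, and none of the 10 Frizzled genes did, while 3 of 10 had an unadjusted p under 0.05, against 20.3% of all genes. The 3 were Fzd3, Fzd10 and Fzd2.

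Fzd3 was 35.02, 28.17, 31.59, 29.42 and 31.39 CPM in the 5 males. In the 6 females it was 17.24, 29.61, 14.25, 29.93, 29.62 and 19.75 CPM. The females thus fell into 3 mice at the level of the males and 3 mice far below every other mouse, and the low ones were the 3 libraries with over 15% tallied as aligned to several places. With all mice the log2 fold change, male minus female, was 0.46 with a standard error of 0.15 (edgeR, adjusted p = 0.101). Without the 3 libraries it was 0.06 (standard error 0.07, adjusted p = 0.891 with edgeR), and with the share as a covariate it was 0.08 (standard error 0.11, adjusted p = 0.912 with edgeR), both alternatives chosen after seeing the data. The count of genes called between the sexes fell to 13 and to 9 in these fits. With all mice, the call of Fzd3 depended on the count minimum, with an adjusted p (edgeR) of 0.0987 when 10 counts were required in every mouse and 2.15e-07 with no minimum, and it also passed when CD female 2 (adjusted p = 0.0178) or FD female 2 (adjusted p = 0.047) was left out.

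**Figure D4:**
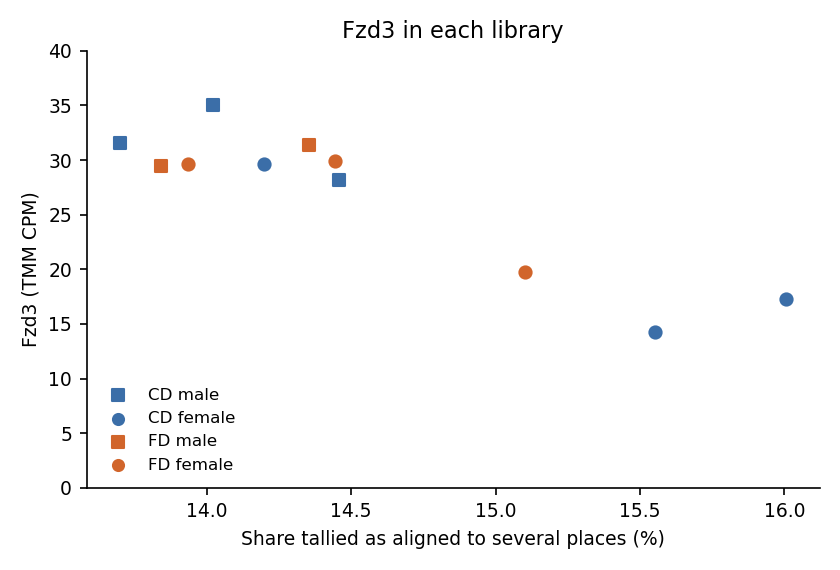
Fzd3 in TMM-normalised CPM (vertical axis from 0) against the share tallied as aligned to several places in each library (horizontal axis, percent), one point per mouse, CD in blue and FD in orange, squares for males and circles for females. The 3 female libraries above 15% lie at 14.2 to 19.7 CPM and the other 8 libraries, of both sexes, at 28.2 to 35.02 CPM.

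Over all 11 mice Fzd3 had a coefficient of variation of 24.8%, against a counting error of 3.97% expected from its mean count. Among the other 8 libraries the coefficient of variation of Fzd3 was 6.86%, the smallest of the 10 genes, of which the rest lay between 10.1 and 29.0%. Fzd3 also had the most counts, and the counting error of the rest, from their mean counts over all mice, was larger, 6.25 to 16.8%. Within these 8 libraries, Fzd3 showed no relation to the share that passed a test (Pearson r = -0.31, exact permutation test, p = 0.488, adjusted p = 0.710 over the 10 genes). No correlation of a member with the share over all 11 was computed, because the 3 libraries lie apart from the other 8 in Fzd3. The fit above with the share as a covariate did use all 11 libraries.

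The remaining members were compared between the same libraries as a description. As a ratio of mean CPM, with 2 CD and 1 FD mice against 1 CD and 2 FD mice, Fzd3 was at 57.5% and Fzd4 at 71.3% of the other females, whereas Fzd9 was at 121%. Fzd1, Fzd7 and Fzd10 were at 97.0, 97.2 and 97.2%, Fzd8 at 90.9%, Fzd6 and Fzd2 at 87.5 and 87.3%, and Fzd5 at 109%. These ratios describe libraries picked by their share and were not tested.

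**Figure D5:**
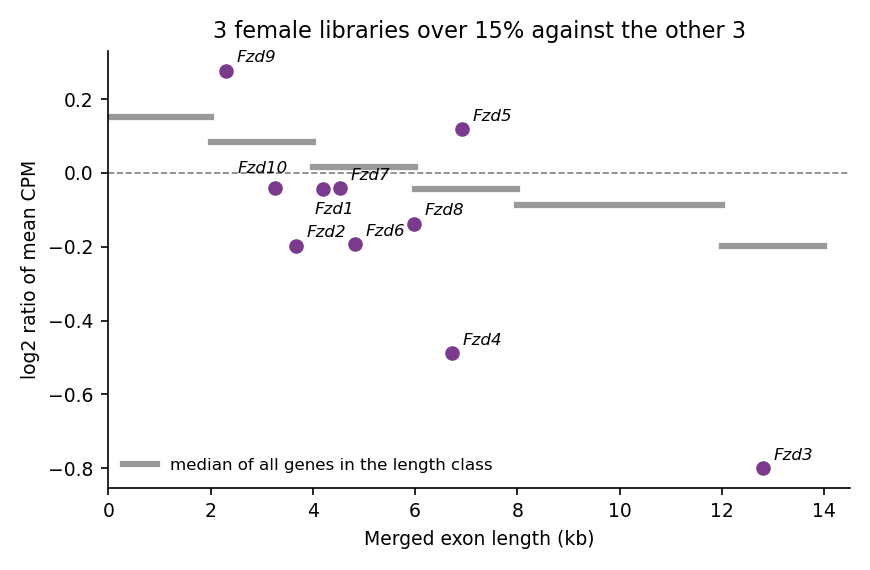
Log2 ratio of the mean CPM of the 3 female libraries over 15% to that of the other 3 female libraries (vertical axis) against the merged exon length in kb (horizontal axis) for the 10 Frizzled genes (purple points), with grey bars for the median of all genes with a mean level of 1 CPM or more in each length class, the last class drawn to 14 kb though it has no upper limit. The medians fall from 0.15 for genes under 2 kb to -0.20 for genes of 12 kb or more, and Fzd3 at -0.80 lies below its class.

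Among all genes with a mean level of 1 CPM or more, the same ratio fell with exon length. Its median was 0.15 on the log2 scale for 1972 genes with under 2 kb of exons and -0.20 for 850 genes with 12 kb or more, of which 88.9% were lower in the 3 libraries. Fzd3 has 12.8 kb of exons and the lowest GC content of the family, 40.3% of its longest transcript, and Fzd9 the shortest exons and the highest GC content, 62.2%. At -0.80 on the log2 scale Fzd3 lay lower than the median of its length class, and 24 of the 850 genes were lower still.

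Summed cell type markers are given for the same libraries, without a test. The sum of the endothelial and mural markers was 322 to 346 CPM in the 3 libraries and 396 to 421 CPM in the other females, without overlap, and that of the astrocyte markers 4812 to 5190 against 5265 to 5464 CPM, also without overlap. Higher in the 3 libraries and without overlap were the sums of the microglia markers, 355 to 371 against 335 to 352 CPM, and of the neuron markers, 9752 to 10006 against 9224 to 9512 CPM. The oligodendrocyte markers, 5240 to 6512 against 4171 to 5393 CPM, overlapped. So did the sums of the choroid plexus, meningeal fibroblast, dentate granule cell and CA field pyramidal markers, and of those of thalamus, striatum and cortex. The share of all genes without overlap in this split is not given here, so these separations carry little weight. The part of cell makeup, of transcript length and of library preparation in the Fzd3 values was not tested.

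Fzd10 had its lowest values in males, with a mean of 1.88 ± 0.607 CPM in males (SD, n = 5) and 2.54 ± 0.368 CPM in females (SD, n = 6). The male values were 1.43, 2.75, 1.44, 2.28 and 1.48 CPM and those of the females 2.13 to 2.996 CPM, so that 3 males lay below all females and 2 among them. Its log2 fold change, male minus female, was -0.47 with a standard error of 0.19 (edgeR, adjusted p = 0.167), and -0.50 with a standard error of 0.25 without the 3 libraries. Fzd2 was 5.52 to 6.08 CPM in males and 5.76 to 8.02 CPM in females, which gave a log2 fold change of -0.21 (edgeR, standard error 0.10, adjusted p = 0.236). Fzd5, with few counts, had -0.42 (standard error 0.22), Fzd4 0.24 (standard error 0.14) and Fzd9 -0.16 (standard error 0.13), and Fzd1, Fzd6, Fzd7 and Fzd8 lay between -0.02 and 0.12. Without the 3 libraries Fzd4 was at 0.003 and Fzd9 at 0.04, while Fzd5 was at -0.38 and Fzd2 at -0.30.

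Whether the diet difference itself differed between males and females was tested by the interaction of diet and sex. No gene of 20589 was called (0%) with edgeR or with DESeq2, and 391 had an unadjusted p under 0.05 with edgeR and 119 with DESeq2. Of the Frizzled genes, Fzd8 was furthest from 0, with a difference of log2 fold changes of -0.48 (95% CI -0.96 to -0.01, adjusted p = 1 with edgeR). Fzd3 was nearly as far, at -0.47 (95% CI -1.08 to 0.14), and at -0.79 without CD female 2. That last fit left CD female 1 and CD female 3 as the only CD females, both among the 3 libraries. The Fzd3 values of the interaction thus rest in part on these libraries. Fzd7 was close to 0, at -0.04 (95% CI -0.40 to 0.32). Without the 3 libraries Fzd8 was at -0.39, and Fzd6, Fzd9 and Fzd5 lay further from 0, at -0.55, -0.55 and -0.49. With 2 FD males the intervals are wide.

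The other genes of the pathway showed no called diet difference. Of 18 Wnt ligands tested, 11 were higher in FD mice, with a median log2 fold change of 0.07, and Wnt16 had the smallest unadjusted p with 0.45 (standard error 0.19, adjusted p = 1 with edgeR). All 8 co-receptors and alternative receptors were above 0 with a median of 0.04, Smo, the Hedgehog signal transducer related to the Frizzled proteins, having the smallest p at 0.09 (standard error 0.08). Of the partners of Norrin and Wnt7 signalling 4 of 4 were above 0 with a median of 0.07, led by Tspan12, a helper of Fzd4 in vessels, at 0.12 (standard error 0.07).

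Among the 8 genes tested of receptor turnover, which include the ligases that clear Frizzled proteins from the membrane, 7 were above 0 with a median of 0.07, and Znrf3, one such ligase, was at 0.10 (standard error 0.07). Of 14 secreted antagonists 8 were above 0 with a median of 0.05, and Dkk3 was at -0.08 (standard error 0.05). Of 15 genes of Dishevelled and the destruction complex 7 were above 0 with a median of -0.00, with Gsk3a, a kinase that marks beta-catenin for destruction, at -0.10 (standard error 0.06). Of 10 planar cell polarity partners 7 were above 0 with a median of 0.02, with Prickle3 at 0.26 (standard error 0.23), and of 2 genes of Wnt secretion 1 was, with Porcn, which adds the lipid that Wnt proteins need, at -0.07 (standard error 0.05).

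Between the sexes, 4 of 79 genes tested in the pathway lists were called (5.06%), a share near the 6.11% of all genes. Wnt9a, a ligand, was lower in males, at -0.63 on the log2 scale (standard error 0.12, adjusted p = 0.0391 with edgeR), and so was Ndp, the gene of Norrin, at -0.33 (standard error 0.10, adjusted p = 0.0932 with edgeR). Lrp6, the co-receptor of the beta-catenin branch, was higher in males at 0.28 (standard error 0.06, adjusted p = 0.0638 with edgeR), as was Apc, the scaffold of the destruction complex, at 0.26 (standard error 0.07, adjusted p = 0.0754 with edgeR). The lists of receptor turnover, secreted antagonists, planar cell polarity and Wnt secretion held 0 called genes, with 1, 3, 2 and 0 genes at an unadjusted p under 0.05, 6 of 34 tested, beside 20.3% of all genes.

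Of the marker lists, Ogn (0.52), 1 of 10 meningeal fibroblast markers, and the astrocyte glutamate transporter Slc1a2 (0.16) were called higher in males. Gfap (-0.17) and the complement genes C1qa (-0.27) and C1qb (-0.28) were called lower in males, from lists of 9 astrocyte and 8 microglia markers. No gene was called among the choroid plexus, endothelial and mural, neuron, dentate granule cell or CA field pyramidal markers, or those of thalamus, striatum and cortex. Of all genes, 6.11% were called. Without the 3 libraries 0 genes of any pathway or marker list were called.

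The members were also compared with each other across mice. Within the 8 libraries under 15%, 33 of 45 pairs of Frizzled genes had a positive correlation of log2 CPM, and 0 of 45 had an adjusted p under 0.1, with 3 at an unadjusted exact permutation p under 0.05. The strongest was between Fzd3 and Fzd10, with Pearson r = -0.81 (exact permutation test, p = 0.00694, adjusted p = 0.312) and Spearman rho = -0.74 (exact permutation test, p = 0.0458, adjusted p = 0.675). It was -0.74 without the 2 mice furthest from the median of Fzd3. Fzd6 and Fzd9 had r = 0.73 and Fzd2 and Fzd5 r = 0.72, and 0.26 and 0.41 without the 2 furthest mice.

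The genes most like each member were sought among 14437 genes with a mean level of 1 CPM or more by the Pearson correlation of log2 CPM over the 11 mice, which share their libraries and depth and include the 3 libraries that stand apart. For Fzd3 they were Larp4b, Lmbrd2 and Usp9x, each at r = 0.99, with r of 0.79, 0.72 and 0.80 in the 8 other libraries and with 8.46, 8.59 and 15.1 kb of exons. For Fzd4 they were Alcam, Pank1 and Shroom4 at 0.94, 0.94 and 0.93, with r of 0.84, 0.81 and 0.90 in the 8 other libraries. For Fzd9 they were Tsfm, Shld1 and Msrb1 at 0.93, 0.92 and 0.91, with 2.90, 2.12 and 1.26 kb of exons. The most similar genes of Fzd3 and Fzd4 all had over 7 kb of exons and those of Fzd9 under 3 kb, but this was not general. Fzd5 has 6.915 kb of exons, and its most similar genes, named below, had 2.29, 1.04 and 1.84 kb. Mcc, with 14.6 kb, was among those of Fzd1, which has 4.20 kb.

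For Fzd1 the most similar genes were Suclg2, Tmem241 and Mcc at r = 0.95, 0.92 and 0.91. For Fzd2 they were Kank4, Slc22a23 and Adgra3 at 0.92, 0.89 and 0.88, and for Fzd7 Gper1, Tnc and Dusp10 at 0.89, 0.87 and 0.87. The lists of these close relatives had no gene in common.

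For Fzd5 the most similar genes were Snapin, Nppc and Isca2 at r = 0.92, 0.88 and 0.87, and for Fzd8 Slc16a3, Ankrd50 and Actn4 at 0.86, 0.84 and 0.81. For Fzd6 they were Rflnb, Accs and Cldn1 at 0.88, 0.86 and 0.85, and for Fzd10 Cdc42ep1, Mycn and Plxnb3 at 0.91, 0.90 and 0.90. These are the highest of many correlations and carry no p-value.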

How the data were processed

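Per the labels and the study's methods, the authors trimmed the 50 bp reads, aligned them to mm10 (GRCm38) with STAR 2.4.0 and counted single-place alignments per gene with featureCounts, though the summary lines have the form HTSeq writes. The annotation release and strand setting are not given in the sources used here. The deposited values are raw counts per gene and mouse. Identifiers were matched to GENCODE M21 (95.1% of genes). Counts were tested with edgeR 4.0.16 in R 4.3.3 (TMM, a total of at least 10 counts, quasi-likelihood test, Benjamini-Hochberg adjustment over all genes tested, threshold 0.1), and DESeq2 1.42.0 was an alternative. The methods were checked on simulated counts. Log2 CPM used a prior count of 2. The share aligned to several places is that summary line over the sum of all tallies, and whether it counts reads or alignments is not stated.

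Mice were grouped by diet and sex as labelled. Same-sex mice with the same number deviated together (r of 0.31 to 0.54 over 5 pairs), but so did several with different numbers (-0.06 to 0.53 over 10). No label links mice by number, so the pairs of the replicate block, without CD male 3, are an assumption that these values do not bear out. Members, gene lists and tests were chosen with earlier results of these data known. Named are all members, list genes with an adjusted p under 0.1, per pathway list the gene with the smallest diet p, overlapping genes, and the 3 most similar genes per member. Lists were the pathway and cell type lists reported above. Alternatives covered scaling, count filters, covariates, pairing, single sexes, single mice and, added after seeing the data, the 3 libraries. A called marker gene is not reported here.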

Additional observations from a re-analysis of the deposited data

Results flagged for a closer look

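In 2 of 20 groups (10 genes in CD and in FD mice), a single mouse stood apart from the others by Dixon's test, which chance alone does in about 1 group in 20. Fzd3 was 19.75 CPM in FD female 3, where the other 4 FD mice lay between 29.42 and 31.39 CPM, a gap of 0.83 of the whole range. This mouse is one of the 3 libraries with over 15% aligned to several places. Fzd5 was 2.60 CPM in CD female 3, where the other 5 CD mice lay between 1.08 and 1.61 CPM, a gap of 0.651 of the whole range, and this library is also one of the 3. What the share has to do with either value was not tested.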

How the results depend on the processing

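Fzd7 kept its sign and stayed short of the threshold in every fit run, and no Frizzled gene was called for diet in any of them. The count of genes called for diet was 14, and became 1 with at least 10 counts in every mouse, 8 with edgeR's own filter, 22 with the unassigned share as a covariate, 2 in males only, 1 in females only, 4 without the 3 libraries, 23 with the multiple-place share as a covariate, and 3 to 12 with single mice left out. With the replicate block it was 23 (19 higher, 4 lower), and the pairing changed no Frizzled call. The count between the sexes was 1257, and became 2043 with DESeq2, 2645 with no count minimum, 9 with the unassigned share and 9 with the multiple-place share as a covariate, 37 without the diet covariate, 13 without the 3 libraries and 18 to 3244 with single mice left out (18 without CD male 1, 3244 without CD female 2), so it carries little weight. For the interaction 10 genes were called with no count minimum and 0 to 1 with single mice left out, 1 without CD female 3.

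Frizzled genes called between the sexes numbered 0, but 2 with no count minimum (Fzd3 and Fzd10), 1 with at least 10 counts in every mouse (Fzd3), and 0 to 2 with single mice left out, 2 without CD female 2 (Fzd3 and Fzd4) and 1 without FD female 2 (Fzd3). Per kilobase of coding sequence 2 of 10 genes kept their rank.

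Signs that turned belonged to values within their error. For diet, Fzd3 was -0.0462 in males, -0.0485 without the 3 libraries, -0.00877 with the multiple-place share and -0.0181 to 0.207 with single mice left out; Fzd5 was -0.0395 in the replicate block and -0.0784 to 0.267; Fzd10 was -0.0585 in the block, -0.0841 in females, -0.00146 with sex as a covariate and -0.0647 to 0.171; in males Fzd6 was -0.00444 and Fzd8 -0.164. For sex, Fzd6 was -0.05003 with the unassigned share, -0.0138 without the diet covariate, -0.0851 without the 3 libraries and -0.0468 to 0.115 with single mice left out; Fzd8 was 0.0101 with the unassigned share and -0.0881 to 0.0455; Fzd9 was 0.037 without the 3 libraries and 0.0694 with the multiple-place share. Differences of mean CPM were -0.306 to 4.11 for Fzd3, -0.118 to 0.234 for Fzd5 and -0.241 to 0.107 for Fzd10 with single mice left out, and -0.0686 for Fzd5 over the pairs. The causes were not tested. Fzd5 had 16 to 74 counts per mouse and Fzd10 21 to 99, a counting error of 16.8 and 14.1% beside a coefficient of variation of 30.2 and 25.8% between mice.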
